A study of Canis lupus familiaris with 6 samples.

Results

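The barcodes described here are the microglia-like cells of dog neural retina, chosen by their transcripts in single-cell RNA libraries of retina lying over or away from a graft. Of 82153 barcodes with at least 300 detected genes, 879 (1.07%) met the rule, and 819 of these (93.2%) came from 1 experiment, LG5. A barcode was taken when C1QA, C1QB, C1QC, CSF1R, AIF1, CX3CR1 and P2RY12 together gave at least 3 UMIs (unique transcript molecules) and at least 0.2% of its UMIs, with at least 2 of these 7 genes detected. It was left out when it held a UMI of FBP1, or when RLBP1, GLUL and SLC1A3, genes of Müller glia, made up 0.3% or more of its UMIs. These 11 genes chose the barcodes, so their levels are given as a description and without a test.

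Dogs with normal, wild-type retinas received immunosuppression and a subretinal injection of triturated organoid fragments grown from human embryonic stem cells of the established line WA09 with a CRX-tdTomato reporter. After 3 days, a 5 mm punch of neural retina over the graft and a graft-free 5 mm control punch of retina were taken in each of 3 experiments, named LG5, RC726 and RC724. Both groups were therefore immunosuppressed and 3 days past surgery, and no punch over an injection without cells is among the 6 libraries. Whether each experiment used a separate dog, and the age of the dogs, are not stated in the labels, so the spread between experiments is not claimed as spread between animals.

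Microglia are the resident macrophages of the retina, derived from the yolk sac and kept alive by signals through the receptor CSF1R. At rest they survey synapses with fine processes and carry purine receptors such as P2RY12 and the fractalkine receptor CX3CR1. After injury they can withdraw these receptors, divide, migrate, take up debris and switch on lipid, lysosome and chemokine genes. Complement C1q, CSF1R and AIF1 (the actin-binding protein IBA1) are shared with the macrophages around vessels, which also carry the mannose receptor MRC1 and the hyaluronan receptor LYVE1.

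The numbers behind each library were very uneven. LG5 held 582 microglia-like barcodes with 1720487 UMIs over the graft and 237 with 529577 UMIs in control. RC726 held 27 with 133758 UMIs over the graft and 12 with 52912 UMIs in control, and RC724 held 15 with 63233 UMIs and 6 with 5439 UMIs. In RC726 and RC724 the 3 richest barcodes held between 59.5% and 80.3% of the UMIs of their library's sum, against 2.02% and 3.45% in LG5, so the smaller sums largely describe a few cells. In the RC724 control, 3 UMIs correspond to 552 CPM (counts per 1000000, the UMIs of a gene scaled to the UMI total of the microglia-like barcodes of that library), and most genes below that level were not detectable there. No cell barcode was shared between the microglia-like barcodes of any pair of libraries, while between 17 and 102 barcode sequences were shared by the full lists of each pair and 10 of the 879 were also listed in another library.

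The label was only partly borne out by the markers. C1QA was found in 559 of 582 LG5 barcodes over the graft and in 221 of 237 in control, and CSF1R in 350 and 150. CX3CR1 was found in 101 and 44 of them, P2RY12 in 53 and 29, and TMEM119, a surface protein of resting microglia, in 4 and 5. MRC1 was found in 192 and 28, and LYVE1 in 263 and 78. The barcodes thus carried the C1q core that microglia and perivascular macrophages share, with few transcripts of the genes that set microglia apart, and they are called microglia-like for that reason. Marker lists of neutrophils, T or NK cells and monocytes gave at most 1, 26 and 79 UMIs in any library. Of a dendritic cell list, BATF3, a transcription factor of those cells, gave 159 UMIs in 122 LG5 barcodes over the graft and 27 in 22 in control (1.81-fold, 1.2 to 2.84), 7 and 8 UMIs in RC726, and 4 and 0 in RC724. The receptors FLT3, CCR7 and XCR1 of the same list gave 3, 1 and 0 UMIs over the graft in LG5 and 0 in every other library. The part of such cells in the results was not tested.

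Transcripts of rods, the most frequent retinal neurons, were carried by these barcodes in every library. The 6 rod markers made up 0.0789% of UMIs over the graft and 0.143% in control in LG5, 0.0359% and 0.068% for RC726, and 0.0348% and 0.129% in RC724. Set against their level in the whole library, that corresponds to an estimated 31.5% and 28.7% of free RNA in LG5, 12.3% and 17.3% for RC726, and 21.3% and 59.1% in RC724. The rod share was lower over the graft in each experiment, and its part in the results below was not tested except where a value with that RNA subtracted is given.

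At the edge of the rule in LG5, 20 barcodes over the graft and 8 in control held exactly 3 marker UMIs, and 20 and 11 with 2 marker UMIs stayed just outside. The exclusion on FBP1, a gluconeogenic enzyme, removed 91 barcodes over the graft and 8 in control that otherwise met the rule in LG5. It removed 2 and 3 such barcodes in RC726 and 4 and 0 in RC724. The removed barcodes are part of all other barcodes wherever those are given for comparison. The 91 excluded barcodes of the LG5 punch over the graft held 1112 UMIs of C1QA, 13 of CX3CR1 and 578 of SPP1, so this boundary is drawn by 1 gene.

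Microglia-like barcodes made up more of the punch over the graft than of its control in all 3 experiments, with log2 ratios near 1. In LG5 they were 2.44% of kept barcodes over the graft (95% exact binomial interval 2.24 to 2.64) and 1.31% in control (1.15 to 1.49). In RC726 they were 0.233% (0.154 to 0.339) and 0.119% (0.0613 to 0.207). In RC724 they were 0.154% (0.0863 to 0.254) and 0.0684% (0.0251 to 0.149). The intervals, which cover counting error only, were apart in LG5 and overlapped in RC726 and RC724. The log2 ratios were 0.89, 0.98 and 1.17 (mean 1.01, SD 0.145, n = 3 pairs), and an exact two-sided paired sign-flip test gave p = 0.25, the smallest that 3 pairs allow. With only barcodes of at least 1000 UMIs and at most 20% mitochondrial UMIs the log2 ratio averaged 1.67 (SD 1.05). It was then 1.04 in LG5 and 1.08 for RC726, while the 2.88 of RC724 rested on 8 barcodes against 1. Across libraries the shares averaged 0.941% ± 1.29 (SD, n = 3) in the graft punches and 0.5% ± 0.705 (SD, n = 3) in the control punches, a spread set by the difference between LG5 and the others. Among barcodes without any UMI of the 5 perivascular macrophage markers (MRC1, CD163, LYVE1, F13A1, STAB1) the log2 ratios were 0.40, 1.10 and 0.85 (mean 0.78), and the LG5 ratio was smaller than over all its barcodes.

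**Figure D1:**
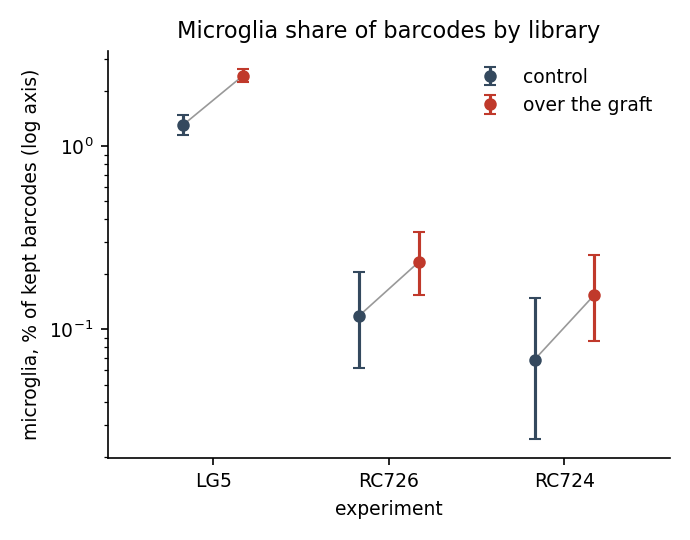
Microglia-like barcodes as percent of kept barcodes (log axis) in each experiment, over the graft and in control, with 95% exact binomial intervals and a line joining the punches of an experiment. The share over the graft lies above its control in each experiment, and both LG5 libraries (2.44% and 1.31%) lie above all RC726 and RC724 libraries.

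Among the chosen barcodes, C1QA was as high or higher over the graft, while CSF1R, P2RY12 and CX3CR1 were lower over the graft in LG5. AIF1 differed in direction between experiments. C1QA, the A chain of complement C1q, stood at 4874 CPM in the graft punch and 3824 CPM in the control punch in LG5, 2863 and 2722 CPM in RC726, and 3653 and 2022 CPM in RC724. CSF1R stood at 428 and 580 CPM in LG5, 292 and 359 CPM in RC726, and 380 and 0 CPM in RC724. P2RY12, the receptor through which processes sense ADP, stood at 34.3 and 62.3 CPM in LG5, 112.1 and 113 CPM in RC726, and 15.8 and 0 CPM in RC724. In the RC724 control neither receptor had a UMI. CX3CR1 stood at 69.8 and 88.8 CPM in LG5, 97.2 and 113 CPM in RC726, and 94.9 and 184 CPM in RC724. AIF1, the IBA1 gene, stood at 797 and 736 CPM in LG5, 688 and 945 CPM in RC726, and 886 and 1287 CPM in RC724.

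Over all 3 experiments, no gene of the microglia-like barcodes passed the test for a difference between the graft and control punches. The edgeR quasi-likelihood fit on the 6 sums, with the experiment as a block, tested 1450 genes and called 0 (0% of genes tested), with 47 at an unadjusted p under 0.05. DESeq2 on the same sums called 19, of which 3 were higher over the graft (CCL23, GLDN and HSP90AA1) and 16 lower, 15 of these genes of cytosolic ribosomal proteins. The 8 genes with the smallest edgeR p are given as values, since none passed. LOC119877775 had a log2 change of -1.86 ± 0.37 (SE; edgeR adjusted p = 0.21), LOC119877774 one of -1.59 ± 0.47 and LOC119863879 one of -1.48 ± 0.41. These 3 loci carry no gene symbol in the files. Without RC724, edgeR called 4 genes, LOC119877774 (adjusted p = 1.29e-12), LOC119877775 (adjusted p = 1.22e-10) and LOC119863879 lower and CCL5 higher over the graft. Over all alternatives the edgeR adjusted p of LOC119877775 reached 0.9996. RPS29, RPS27 and RPL26, proteins of the ribosome, had log2 changes of -1.06, -0.86 and -1.26.

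GLDN and CTSB were the 2 genes higher over the graft among these 8. GLDN encodes gliomedin, a secreted and membrane-bound protein known from nodes of Ranvier, and stood at 1222 CPM in the graft punch and 225 CPM in the control punch in LG5, 194 and 37.8 CPM in RC726, and 585 and 0 CPM in RC724. Its edgeR log2 change was 2.55 ± 0.67 (adjusted p = 0.79), and DESeq2 gave 2.56 (adjusted p = 0.042). CTSB encodes cathepsin B, a protease of the lysosome, and stood at 309 and 64.2 CPM in LG5, 142 and 37.8 CPM in RC726, and 506 and 0 CPM in RC724, with a log2 change of 2.27 ± 0.70 (edgeR adjusted p = 0.997). Both genes were higher over the graft in each experiment, yet in RC724 all 32 CTSB UMIs came from 2 barcodes. Its control held 0 UMIs, where 3 UMIs would already be 552 CPM. GLDN was found in 58.9% of LG5 barcodes over the graft and 22% in control when each barcode was thinned to 1000 UMIs, against 12.8% and 4.17% of all other barcodes.

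CCL23, a chemokine for monocytes, was among the genes called by DESeq2. It stood at 8106 CPM in the graft punch and 3486 CPM in the control punch in LG5, 3035 and 2003 CPM in RC726, and 5029 and 4964 CPM in RC724. The LG5 punches were far apart, while the RC724 punches were level. Its log2 change was 0.82 with DESeq2 (adjusted p = 0.0015) and 0.79 ± 0.28 with edgeR (adjusted p = 0.997).

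**Figure D2:**
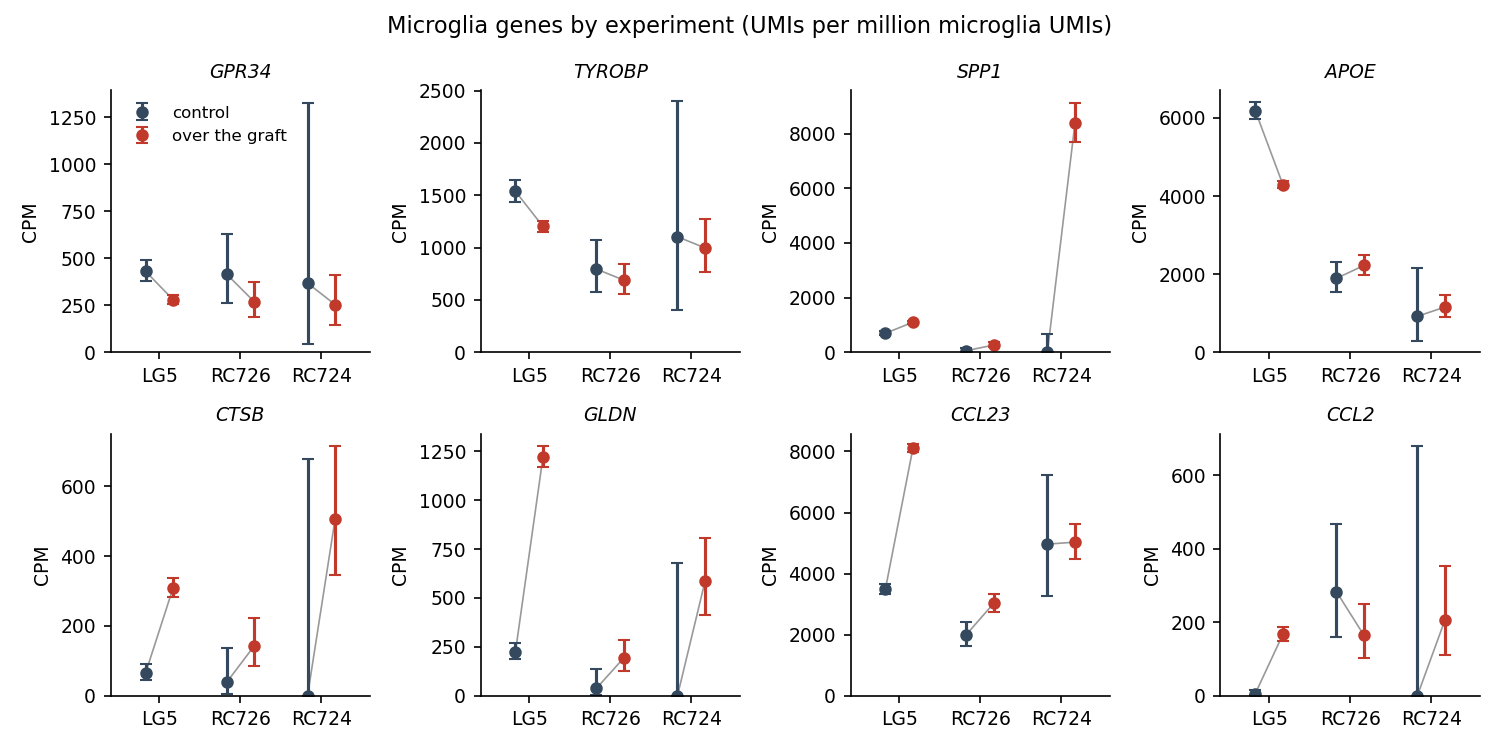
CPM of 8 genes in microglia-like barcodes by experiment, over the graft and in control, with 95% exact Poisson intervals and lines joining the punches of an experiment. CTSB, GLDN and SPP1 lie higher over the graft in each experiment, GPR34 and TYROBP lower, and APOE differs in direction between experiments. The RC724 control rests on 5439 UMIs, and its GPR34 value lies under the 552 CPM that 3 UMIs give there.

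Because LG5 holds most of the barcodes, genes were also described there alone, with 1 library per group and therefore without a test. Of 3333 genes with at least 50 CPM in either punch, 56 (1.68%) were at least 4-fold higher over the graft with 95% Poisson intervals apart, and 8 (0.24%) were at least 4-fold lower. At any fold, intervals were apart for 864 genes higher (25.9%) and 400 lower (12%). These intervals cover counting error only, and the median log2 ratio over all 3333 genes was 0.22. With edgeR's TMM scaling, which shifts all LG5 ratios by 0.26, the counts at 4-fold were 33 higher and 13 lower, and at any fold 518 higher and 692 lower. Lists below are read against that shift.

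**Figure D3:**
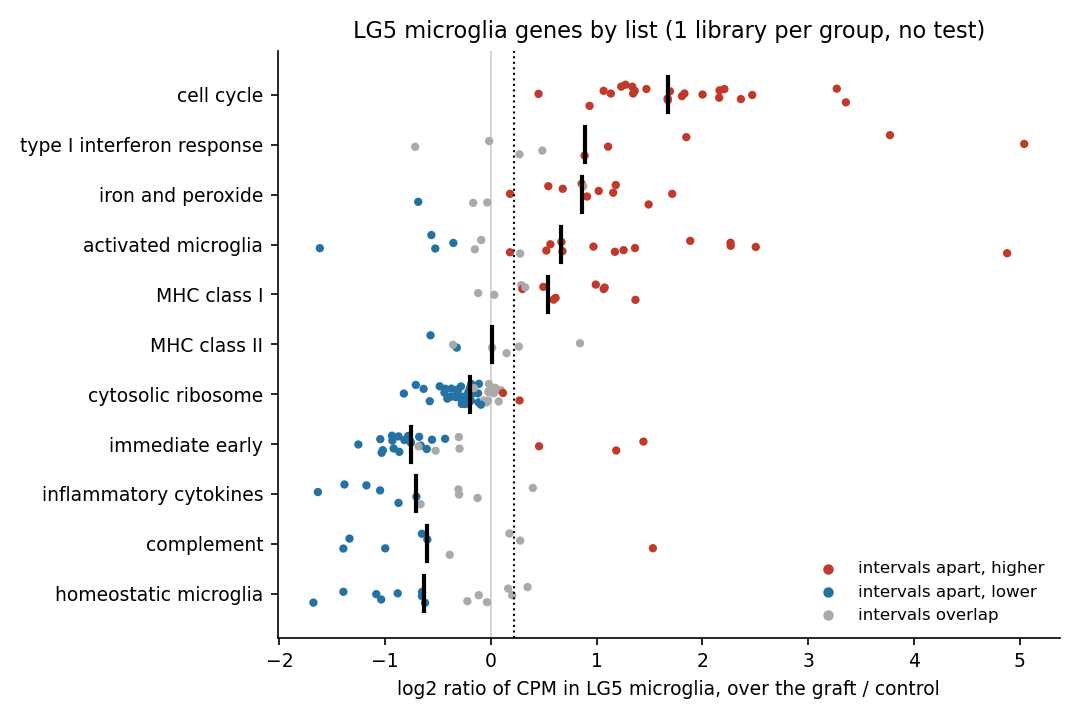
Log2 ratio of CPM (over the graft / control) in LG5 microglia-like barcodes for genes of 11 lists with at least 50 CPM, 1 point per gene, coloured by whether Poisson intervals are apart, with list medians (bars) and the median of all 3333 genes (dotted line, 0.22). All 23 cell cycle genes lie above the dotted line, and the medians of the homeostatic, inflammatory and immediate early lists lie below 0.

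Homeostatic genes of microglia, those of the surveying state, were lower over the graft in LG5 as a list, and their summed level was not lower in the other experiments. Of 14 list members with at least 50 CPM and outside the rule, 0 were higher and 8 lower with intervals apart, none by 4-fold, and their median log2 ratio was -0.64 beside 0.22 for all genes. On the TMM scale the counts were again 0 and 8. GPR34, a lysophosphatidylserine receptor, stood at 280 CPM in the graft punch and 431 CPM in the control punch in LG5 (ratio 0.649, 95% interval 0.554 to 0.764), 269 and 416 CPM in RC726, and 253 and 368 CPM in RC724. It was thus lower over the graft in all 3 experiments, with overlapping intervals outside LG5 and an edgeR log2 change of -0.57 ± 0.55 (adjusted p = 0.997).

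LPAR6, a lysophosphatidic acid receptor, was lower over the graft in LG5 only. It stood at 79.6 and 255 CPM in LG5, 112.1 and 37.8 CPM in RC726, and 15.8 and 0 CPM in RC724. SALL1, the transcription factor of microglial identity, had 54 and 13 UMIs in LG5 (31.4 and 24.6 CPM, ratio 1.28, 0.689 to 2.55), and P2RY13, another ADP receptor, had 55 and 16 UMIs (ratio 1.06, 0.598 to 1.98). Neither differed beyond counting error. TREM2, a lipid-sensing receptor, had 18 and 1 UMIs (ratio 5.54, 0.875 to 231), and TMEM119 4 and 5, too few to compare. Summed over the 23 list genes outside the rule, the homeostatic level was 0.316% of UMIs over the graft and 0.519% in control in LG5 (ratio 0.609, 0.581 to 0.638), 0.404% and 0.272% in RC726 (1.48, 1.23 to 1.8), and 0.327% and 0.184% in RC724 (1.78, 0.949 to 3.77). The direction in LG5 was opposite to that in RC726, where 1 barcode gave 59.7% of the control's list UMIs and 35.6% of those over the graft.

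Genes of the activated state were mostly higher over the graft in LG5. There, 14 of 21 assessed members were higher and 4 lower with intervals apart, 4 of them at least 4-fold higher, and the median log2 ratio was 0.67, beside 1.11 for the same genes in all other LG5 barcodes. On the TMM scale 12 were higher and 6 lower. The 4 were CCL2, LGALS3, CTSB and CAPG. CAPG, an actin-capping protein of macrophages, stood at 173 CPM in the graft punch and 35.9 CPM in the control punch (4.81-fold, 3.03 to 8.11), and was found in 16.4% and 5.24% of thinned barcodes against 1.18% and 0.129% of all others. LGALS3, the lectin galectin-3, stood at 150 and 26.4 CPM (5.67-fold, 3.32 to 10.5), but was found in 11.6% and 1.57% of thinned barcodes against 16.5% and 10.4% of all others, whose level was 245 and 124 CPM. With free RNA subtracted LGALS3 stood at 105 CPM in the graft punch and 0 CPM in the control punch. Here and below, CPM after subtraction are scaled to the UMIs left, a smaller total, so a level can rise by subtraction.

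FABP5, a fatty acid carrier, was found in microglia-like and other barcodes of LG5 in nearly the same shares. It stood at 794.5 and 215 CPM in LG5 (3.69-fold, 3.05 to 4.51), with 921 and 174 CPM in all other barcodes, and was found in 45.6% and 12% of thinned microglia-like barcodes against 44.6% and 12.3% of all other barcodes. With free RNA subtracted it stood at 722 and 225 CPM in the microglia-like barcodes, a log2 ratio of 1.69 in place of 1.88.

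SPP1, the secreted phosphoprotein osteopontin, was well above background. It stood at 1097 CPM in the graft punch and 691 CPM in the control punch in LG5 (1.59-fold, 1.42 to 1.78), 262 and 56.7 CPM in RC726, and 8382 and 0 CPM in RC724. All 3 experiments had more over the graft, and the edgeR log2 change was 2.23 ± 0.75 (adjusted p = 0.997). In RC724 1 barcode gave 359 of the 530 UMIs. In LG5 the share of thinned barcodes with SPP1 was 42.9% and 39.8%, against 1.30% and 0.120% of all others, so the punches differed more in the amount than in the share. Without LG5, on 4 libraries, edgeR called 2 genes, SPP1 and RGS1, both higher over the graft.

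APOE, the lipid carrier often named beside SPP1 in activated microglia, did not follow it. It stood at 4294 and 6182 CPM in LG5 (ratio 0.694, 0.666 to 0.724), 2220 and 1890 CPM in RC726, and 1154 and 919 CPM in RC724. The LG5 punch over the graft was lower and the other 2 experiments differed little, with an edgeR log2 change of 0.02 ± 0.35. TYROBP, the adaptor of TREM2, stood at 1201 and 1537 CPM in LG5 (ratio 0.782, 0.72 to 0.849), 688 and 794 CPM in RC726, and 996 and 1103 CPM in RC724, with an edgeR log2 change of -0.15 ± 0.41. LPL, a lipase of disease-associated microglia, had 8 UMIs over the graft and 0 in control in LG5 and 0 in all other libraries. Over all 6 libraries, 0 of 16 members tested passed, and 14 had a positive log2 change (920 of all 1450 genes did). Summed over the list, the activated level was 2.42% and 2.1% of UMIs in LG5, 1.02% and 0.843% for RC726, and 2.32% and 1.23% in RC724, higher over the graft in each. The sum was higher over the graft in all other barcodes too. There it was 1.79% and 1.03% in LG5, 0.763% and 0.49% for RC726, and 1.16% and 0.948% in RC724. Of the list UMIs over the graft in RC724, 1 microglia-like barcode gave 53.8%. The part of free RNA in these sums was not tested.

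**Figure D4:**
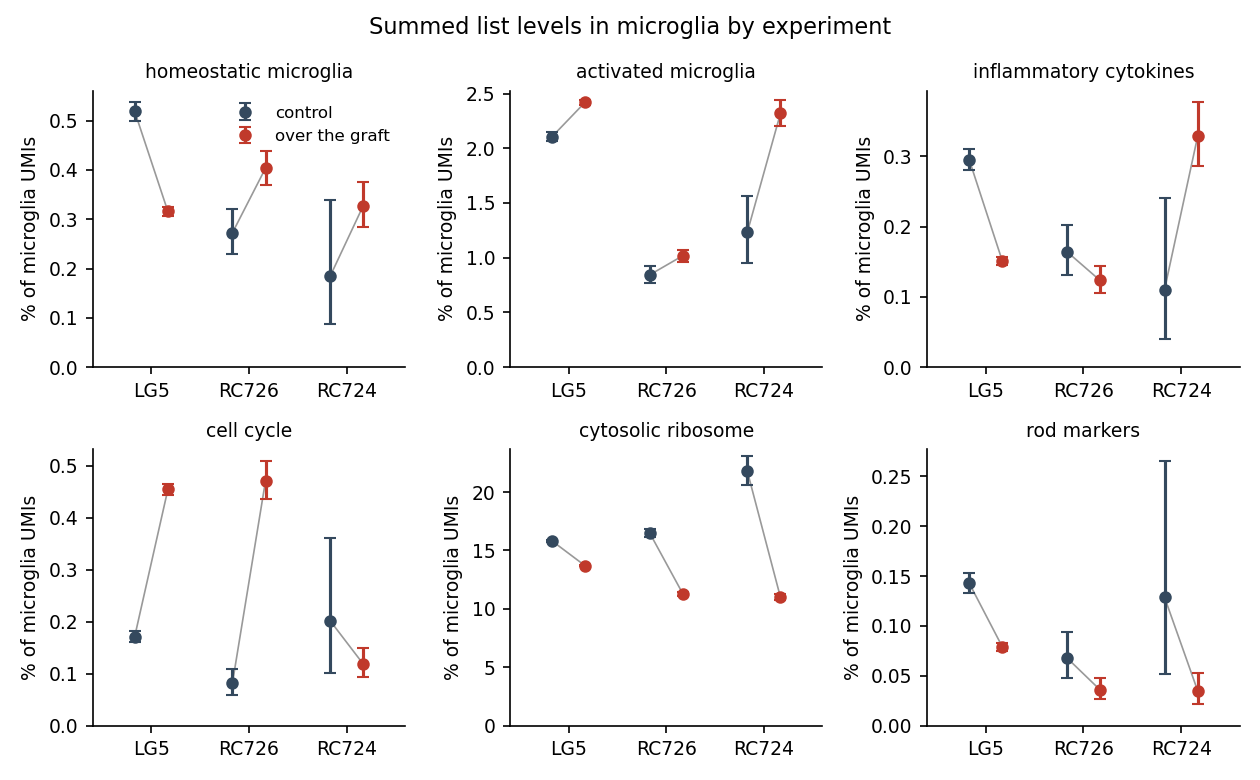
Summed level of 5 gene lists and of the rod markers, as percent of the UMIs of microglia-like barcodes, by experiment, over the graft and in control, with 95% Poisson intervals. The homeostatic list lies on opposite sides of control in LG5 and in the other experiments, the activated list is higher and the ribosomal list lower over the graft in each, and the rod markers are lower over the graft in each.

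Inflammatory cytokine genes were lower over the graft in LG5. Of 11 assessed members, 0 were higher and 6 lower with intervals apart, and the median log2 ratio was -0.70. CXCL8, a chemokine for neutrophils, stood at 215 CPM in the graft punch and 669 CPM in the control punch (ratio 0.322, 0.277 to 0.373), and was found in 8.30% and 23.6% of thinned barcodes against 0.315% and 0.0860% of all others. In RC724 it stood at 996 CPM over the graft, from 2 barcodes, and in RC726 at 0 in both punches. IL1B, a cytokine released after inflammasome activation, stood at 74.4 and 81.2 CPM in LG5 (ratio 0.916, 0.644 to 1.33), 142 and 284 CPM in RC726, and 395 and 0 CPM in RC724, with an edgeR log2 change of -0.12 ± 0.69. TNF had at most 2 UMIs in any library. Summed, the list made up 0.151% and 0.295% of UMIs in LG5, and 0.123% and 0.164% in RC726 (of which 1 control barcode gave 98.9%). In RC724 it made up 0.329% and 0.11%, from 208 and 6 UMIs, with 58.2% of the former in 1 barcode. The summed levels thus did not share a direction, and those outside LG5 rested on few barcodes.

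Immediate early genes, which tissue dissociation is known to induce, were lower in LG5 too. There 19 of 26 were lower and 3 higher over the graft with intervals apart, with a median log2 ratio of -0.76, and the 3 higher were the chaperones HSPA8, HSP90AA1 and HSP90AB1. The list's level was 1.7% and 2.32% of UMIs in LG5, 0.721% and 0.429% for RC726, and 0.555% and 0.754% in RC724. The part of dissociation in the cytokine values was not tested.

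Chemokines that draw monocytes and T cells were among the largest ratios in LG5. CCL2, the ligand of CCR2, had 287 UMIs in 63 barcodes over the graft and 3 UMIs in 2 barcodes in control (29.4-fold, 9.98 to 144). In RC726 it stood at 164 and 284 CPM, the control from 1 barcode, and in RC724 at 206 and 0 CPM, again from 1 barcode. CCL5, a chemokine for T cells, had 186 UMIs in 22 barcodes over the graft and 0 in control in LG5, at least 19.1-fold higher against a floor of 3 UMIs, and 9 and 0 UMIs in RC726. CXCL13, a chemokine for B cells, had 166 UMIs in 10 barcodes, 82 of them in 1, and 3 UMIs in control. CCL3 (11 and 1 UMIs) and CCL4 (29 and 18 UMIs, ratio 0.496, 0.266 to 0.948), inflammatory chemokines of macrophages, were low in LG5. The direction of CCL2 in LG5 was not that of RC726.

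Interferon-response genes were higher over the graft in LG5, but their level in these barcodes could not be told from free RNA. Of 9 assessed members 5 were higher and 0 lower with intervals apart, with a median log2 ratio of 0.89 (3 higher and 1 lower on the TMM scale), beside 1.73 for the same genes in all other LG5 barcodes. ISG15, an interferon-induced ubiquitin-like protein, stood at 129 CPM in the graft punch and 9.44 CPM in the control punch (13.7-fold, 5.77 to 42.5), and HERC6, a ligase of the same pathway, at 62.2 and 1.89 CPM. ISG15 was found in 11% and 1.05% of thinned microglia-like barcodes, against 28.7% and 3.64% of all others. With free RNA subtracted, ISG15 was at 0 CPM in both punches and the list kept 4 assessed genes with a median log2 ratio of -0.15. MX1, an antiviral GTPase, had 58 and 6 UMIs in LG5 and 1 and 5 in RC726. Summed, the list made up 0.12% and 0.0682% of UMIs in LG5, 0.0725% and 0.0907% for RC726, and 0.0617% and 0.147% in RC724, against 0.22% and 0.0956% in the other barcodes of LG5.

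Antigen presentation genes of class I were mostly higher in LG5 by CPM, but on the TMM scale few intervals were apart. Of 12 assessed MHC class I and peptide loading genes, 8 were higher and 0 lower. Their median log2 ratio was 0.54 (1.51 for the same genes in all other LG5 barcodes). On the TMM scale 2 were higher and 1 lower, beside 518 higher and 692 lower of all 3333 genes. B2M, the light chain of class I, stood at 258 and 212 CPM in LG5 (1.22-fold, 0.99 to 1.52), 232 and 246 CPM in RC726, and 237 and 368 CPM in RC724. Of 7 class II genes, 0 were higher and 2 lower, with a median of 0.01 (-0.25 on the TMM scale). CD74, the invariant chain, stood at 1469 and 2183 CPM in LG5 (ratio 0.673, 0.628 to 0.722), 1069 and 983 CPM in RC726, and 1882 and 184 CPM in RC724, with an edgeR log2 change of 0.37 ± 0.55. DLA-DRA, the class II alpha chain, stood at 93.0 and 77.4 CPM in LG5 (1.2-fold, 0.848 to 1.74). The CD74 difference in LG5 had the opposite sign in RC724, where the control held 1 UMI.

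Other complement genes than C1q were mostly lower in LG5, with 5 of 9 lower, 1 higher and a median log2 ratio of -0.60, and the 16 list genes summed to 0.188% and 0.293% of UMIs in LG5 (ratio 0.64, 0.602 to 0.681). The sum was higher over the graft in RC726 (0.237% and 0.172%, ratio 1.38, 1.09 to 1.76) and in RC724 (0.198% and 0.0919%, ratio 2.15, 0.897 to 6.74), where the interval included 1. Iron and peroxide defence genes had 10 of 14 higher and 1 lower, with a median of 0.86 (8 and 3 on the TMM scale), and the same genes had a median of 0.97 in all other LG5 barcodes. Lysosome genes had 6 of 19 higher and 3 lower, with a median of 0.25 (4 and 5 on the TMM scale), near that of all genes.

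Cell cycle genes showed the most uniform direction in LG5. All 23 assessed members were higher over the graft with intervals apart, 8 of them at least 4-fold, and the median log2 ratio was 1.67 (0.79 for the same genes in all other LG5 barcodes). On the TMM scale 20 remained apart, all higher. MKI67, the proliferation antigen, had 176 UMIs in 78 barcodes over the graft and 17 in 8 barcodes in control (3.19-fold, 1.93 to 5.59). TOP2A, the topoisomerase of chromosome separation, had 218 and 15 UMIs (4.47-fold, 2.65 to 8.13). TK1 and MCM4, genes of DNA synthesis, were 10.2-fold (3.9 to 38.1) and 9.64-fold (3.2 to 47.6) higher, UBE2C, of mitotic exit, 5.54-fold (3.4 to 9.64), and SMC2, of chromosome condensation, 5.14-fold (2.42 to 13.1).

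RC724 differed from LG5 and RC726 in the direction of the summed level of these genes. In RC726 the list made up 0.472% of UMIs over the graft and 0.0813% in control, with 59% of the former in 1 barcode and 0.269% without it. MKI67 had 23 and 0 UMIs there, 16 in 1 barcode. In RC724 the list made up 0.119% and 0.202%, from 75 and 11 UMIs (ratio 0.586, 0.31 to 1.22), and the interval included 1. In LG5 it made up 0.455% and 0.171%. The list holds genes that neurons carry too, such as STMN1, so a share of barcodes with at least 2 list UMIs was high everywhere. Thinned to 1000 UMIs it was 67.2% over the graft and 20.9% in control among LG5 microglia-like barcodes (not thinned, the log2 ratio of these shares was 0.61 instead of 1.68), and 53.6% and 39.7% among all other LG5 barcodes. In RC726 it was 8 of 22 and 4 of 9 and in RC724 2 of 8 and 1 of 1. The log2 ratios at that depth were 1.68 (LG5), -0.29 (RC726) and -2 (RC724), so the experiments did not share a direction. An exact two-sided paired sign-flip test gave p = 0.75, with 1 barcode left in the RC724 control. Thinned to 700 UMIs, the shares had log2 ratios of 1.57 (LG5), 1.05 (RC726) and 0.32 (RC724), higher over the graft in each, with p = 0.25 in an exact two-sided sign-flip test, the smallest that 3 pairs allow.

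A core of 13 mitotic genes, picked after the values of the longer list were seen, was nearly missing from other cells. At least 2 core UMIs were found in 98 of 482 thinned LG5 microglia-like barcodes over the graft (20.3%, 95% exact binomial interval 16.8 to 24.2) and in 8 of 191 in control (4.19%, 1.83 to 8.09). Among all other LG5 barcodes the shares were 0.365% and 0.112%. The 7 core genes assessed in LG5 had a median log2 ratio of 1.69 in the microglia-like barcodes and 2.44 in all other barcodes. Summed over the 13 genes, the core made up 0.118% of microglia-like UMIs over the graft and 0.0372% in control. In all other LG5 barcodes that sum was 0.00587% and 0.00622%, not higher over the graft. RC726 had 4 of 22 and 1 of 9, and RC724 0 of 8 (interval up to 36.9%) and 0 of 1 (up to 97.5%). Thinning left out 100 and 46 LG5 barcodes with fewer UMIs. The intervals of the LG5 punches were apart, and those of RC726 overlapped. Without barcodes holding a core UMI, the median log2 ratio of the longer list in LG5 was 1.14 over the 9 genes then at or above 50 CPM (6 higher, 0 lower), and that of TK1 was 0.76 in place of 3.36.

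**Figure D5:**
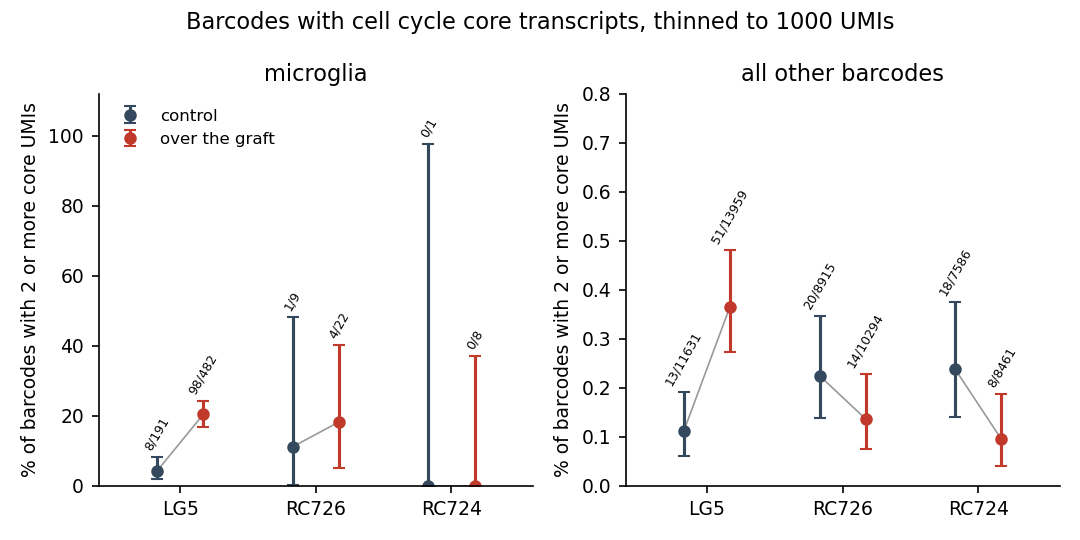
Percent of barcodes with at least 2 UMIs of the 13 cell cycle core genes after thinning to 1000 UMIs, in microglia-like barcodes and in all other barcodes (each with its own axis), by experiment, over the graft and in control, with 95% exact binomial intervals and counts above them. In LG5 the microglia-like shares are 20.3% and 4.19%, against 0.365% and 0.112% in the other barcodes.

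Within LG5 over the graft, the 98 core-positive barcodes were deeper (median 3990.5 UMIs) than the 302 without a core UMI (median 2821), and 82 barcodes had 1. The core-positive barcodes were chosen by their cell cycle genes, and other genes are given as a description. They held CX3CR1 at 43.1 CPM against 85.9 CPM (ratio 0.502, 0.279 to 0.853), SPP1 at 692 against 1268 CPM (0.546, 0.477 to 0.623), APOE at 2938 against 4874 CPM (0.603, 0.565 to 0.643) and HLA-DRB1 at 1321 against 2197 CPM (0.601, 0.545 to 0.662). C1QA stood at 4493 against 5011 CPM (0.897, 0.849 to 0.947), CSF1R at 411 against 445 CPM (0.923, 0.766 to 1.11), and CCL23 at 9036 against 7412 CPM (1.22, 1.17 to 1.27). C1QC, another chain of C1q, stood at 1874 against 2483 CPM (0.755, 0.694 to 0.82). The interval of the CSF1R ratio included 1, while SPP1, APOE and HLA-DRB1 were lower in the barcodes with mitotic genes.

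Perivascular macrophage markers were higher over the graft in LG5 as well, and LG5 values without the barcodes that held them are given below. They made up 0.066% of UMIs over the graft and 0.0393% in control there, 0.0254% and 0.0359% for RC726, and 0.0253% and 0% in RC724. MRC1 stood at 271 and 90.6 CPM in LG5 (2.99-fold, 2.22 to 4.11), LYVE1 at 331 and 236 CPM (1.4-fold, 1.15 to 1.72), and CD163, a haemoglobin scavenger receptor, at 15.7 and 34 CPM (ratio 0.462, 0.245 to 0.89). In thinned LG5 barcodes at least 1 UMI of the 5 markers was found in 41.9% and 23.0%, against 1.30% and 0.490% of all others. The 352 and 105 LG5 barcodes that held such a UMI were deeper than those without one. Their median was 3348.5 against 1448 UMIs over the graft and 2635 against 1824.5 UMIs in control. Leaving them out thus also selects shallow barcodes, and the part of perivascular cells was not tested. Without these 352 and 105 barcodes, the medians of the homeostatic, activated and cell cycle lists were -0.62, 0.78 and 1.75, against -0.64, 0.67 and 1.67 with them. The log2 ratio of APOE was then -0.17 in place of -0.53. CCL5 had 0 control UMIs in either case, so its log2 ratios of 2.86 and 4.25 are lower bounds against the floor of 3 UMIs and are not compared.

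Several of the largest LG5 ratios outside these lists came from few barcodes or were smaller after subtraction of free RNA. LOC102155886, a locus without a symbol, had 366 UMIs in 18 barcodes over the graft, 129 of them in 1, and 0 in control (at least 37.6-fold higher against the floor of 3 UMIs). IGFBP7, a secreted growth factor-binding protein, had 193 UMIs in 13 barcodes, 90 in 1, and 3 in control. VMO1, which stood at 418 and 35.9 CPM (11.6-fold, 7.4 to 19.5), was found in 26.6% and 5.24% of thinned barcodes against 45.1% and 0.593% of all others, and with free RNA subtracted it stood at 15.8 and 43.4 CPM. TIMP1, a protease inhibitor, stood at 878 and 125 CPM and at 0 and 102 CPM after subtraction. S100A4, a calcium-binding protein of motile cells, had 205 UMIs in 113 barcodes and 7 in control (9.01-fold, 4.3 to 22.7), was found in 9.54% and 0.524% of thinned barcodes against 2.34% and 0.387% of all others, and stayed at 149 and 15.3 CPM after subtraction. S100A6, of the same family, stood at 1948 and 453 CPM in LG5 (4.3-fold, 3.77 to 4.92), 359 and 416 CPM in RC726, and 411 and 735 CPM in RC724, so it was higher over the graft only in LG5. After subtraction it stood at 944 and 391 CPM in LG5, a log2 ratio of 1.27 in place of 2.10, which is under 4-fold.

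Genes at least 4-fold lower over the graft in LG5 were 8. LOC119877774 stood at 3494 and 37994 CPM and LOC119877775 at 2136 and 16710 CPM, and both were lower in all other LG5 barcodes too (log2 ratios -2.95 and -2.44). Over the graft and in control they stood at 60976 and 92399 CPM, and 36245 and 62991 CPM, in RC726, and at 5836 and 15628 CPM, and 2404 and 12318 CPM, in RC724. LOC119877772 and LOC102153486, loci without a symbol, had 30 and 37, and 16 and 30 UMIs in LG5. TNFSF9, the ligand of the T cell receptor 4-1BB, had 48 and 68 UMIs (ratio 0.217, 0.147 to 0.319) and IL1R2, the decoy receptor of interleukin 1, 46 and 60 (0.236, 0.157 to 0.352). IL1R2 stood at 299 and 265 CPM in RC726. ZBTB16, a glucocorticoid-induced transcription factor, had 35 and 45 UMIs (0.239, 0.149 to 0.381), and LYPD1, a modulator of nicotinic receptors, 24 and 66 (0.112, 0.0671 to 0.181).

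Genes of the cytosolic ribosome were lower over the graft in every experiment, as a summed level. Their 50 members made up 13.7% of UMIs over the graft and 15.8% in control in LG5, 11.3% and 16.5% for RC726, and 11% and 21.8% in RC724. All 50 had a negative edgeR log2 change (median -0.44, beside 0.16 over all 1450 genes tested), 0 of them passed, and in LG5 34 were lower and 2 higher with intervals apart. In the other barcodes the same genes made up 6.71% and 5.49% of UMIs in LG5, 3.11% and 2.41% for RC726, and 3.19% and 3.38% in RC724. Depth differed between the punches of each experiment and the Cell Ranger version between those of RC726, and their part was not tested.

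Whether the change over the graft differed between the microglia-like barcodes and all other barcodes of the same libraries was tested as an interaction over 12 sums. edgeR called 0 of 1450 genes (0%), with 46 at an unadjusted p under 0.05. For GLDN the difference of the log2 changes was 1.23, for CTSB 1.73, for SPP1 -0.07 and for TYROBP -2.07, with adjusted p of 0.438 for TYROBP and 0.99 for GLDN and CTSB (edgeR). No change over the graft is therefore shown to be particular to these barcodes. All other barcodes include the FBP1-positive ones with the same markers, 91 over the graft and 8 in control in LG5. The 7 marker genes made up 0.0165% and 0.00476% of the UMIs of all other LG5 barcodes. The part of such cells in these differences, as for TYROBP, was not tested.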

How the data were processed

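The deposited files hold raw UMI counts per gene and barcode for 6 libraries, made by the authors with 10x 3' v3.1 chemistry and Cell Ranger (6.0.2 for LG5, 7.1.0 and 7.0.0 for RC726 graft and control, 7.1.0 for RC724), per the file headers. For the genome build and annotation, a version was not given in the sources used here. Of 84417 barcodes, those with 300 or more genes were kept. The members and gene lists were chosen with earlier results of these data known.

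UMI counts of the microglia-like barcodes were summed per library, since cells are not replicates, and tested with edgeR 4.0.16 (quasi-likelihood, filterByExpr, TMM, experiment as block, Benjamini-Hochberg, threshold 0.05) in R 4.3.3. The 11 rule genes were not tested. DESeq2 1.42.0 was an alternative. The block follows from both punches of an experiment coming from the same retina. Deviations of its pair correlated at 0.20 in LG5, 0.47 in RC726 and -0.13 in RC724. P-values rest on how the difference between the punches varied over 3 experiments. In edgeR this left 2 residual degrees of freedom, and variance information shared across genes added a prior of 13.1.

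In LG5, genes with 50 CPM or more in either punch were described by fold and exact 95% Poisson intervals, and shares by Clopper-Pearson intervals, both covering counting error only. A count of 0 was set to 3 for folds. Shares of barcodes with a UMI were thinned to 1000 UMIs. Free RNA was estimated from 6 rod markers, and CPM after its subtraction were scaled to the UMIs left. Scrublet (scanpy 1.11.5) marked at most 2 doublets in a library, so its calls were not used and the 6% highest scores were removed as an alternative. In LG5 this removed 104 of 582 microglia-like barcodes over the graft and 39 of 237 in control. The part of doublets in the results was not tested. Named genes were the 8 smallest edgeR p, the 8 largest LG5 differences in each direction, up to 4 members of each list past the threshold, and a fixed set of microglial genes. Other genes named were chosen after their values were seen. Statistics were tested on simulated data. Other alternatives were low-count filters, no block, leaving out each experiment, stricter barcodes and markers, and leaving out barcodes with perivascular or cell cycle core UMIs, the last chosen after seeing the data. Some results on single genes are not reported here.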

Additional observations from a re-analysis of the deposited data

How the results depend on the processing

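The number of genes called over 6 libraries was 0 with edgeR and also 0 without the replicate block. It was 19 with DESeq2, 4 at a minimum of 1 UMI (LOC119877775 at adjusted p = 0.000336, LOC119877774 at 0.00259, LOC102155886 and CCL5), 3 at 10 UMIs (LOC119877775 at 0.00827, LOC102155886 and CCL5), 3 (HSP90AA1, CCL23 and H2AZ1) without barcodes holding perivascular marker UMIs, and 0 to 4 when an experiment was left out (2 without LG5, 4 without RC724). The test of the difference from other barcodes called 4 genes at 10 UMIs and 0 to 5 with an experiment left out, the 5 without RC724. In LG5, 177 genes were higher and 17 lower by 4-fold after subtraction of free RNA, and 110 and 17 without perivascular marker barcodes. Without the 6% highest Scrublet scores they were 74 and 9, of which 38 and 8 were among the 56 and 8 of the main setting. The LG5 log2 ratio of barcodes with cell cycle transcripts, 1.68, was 0.61 without thinning, 0.45 at 1 UMI, 2.28 with the core list and 1.09 without perivascular marker barcodes. The cause of these differences was not tested.

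Several small edgeR log2 changes turned sign, none past the threshold. TYROBP gave 0.0091 and 0.0061 at 1 and 10 UMIs, 0.0299 without cell cycle core barcodes, and -0.44 to 0.16 with an experiment left out. APOE gave -0.00038 with DESeq2, -0.33 without the block, -0.0213 with stricter markers, and -0.31 to 0.54 with an experiment left out. CD74 ranged from -0.40 (without RC724) to 1.23 (without LG5). B2M gave -0.0042 with stricter markers, -0.0284 without core barcodes, and -0.0186 to 0.26 with an experiment left out. IL1B gave 0.0212 with DESeq2, 0.0267 and 0.0253 at 1 and 10 UMIs, 0.33 without the block, 0.00099 without high Scrublet scores, 0.0393 after free RNA subtraction, and -0.64 to 0.93 with an experiment left out. The LG5 log2 ratios of VMO1 and TIMP1 turned to -1.46 and -5.36 after that subtraction, and MX1 went to 0 and 12.8 CPM. Without perivascular marker barcodes those of P2RY13 and DLA-DRA turned to -0.84 and -0.25, and without core barcodes that of IL1B to 0.59.

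RC726 and RC724 hold 27, 12, 15 and 6 microglia-like barcodes, which limits every statement over 3 experiments.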

Other observations

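Genes of the glucocorticoid response, which immunosuppressive steroids are known to induce, had 1 of 11 assessed members higher and 6 lower over the graft in LG5 microglia-like barcodes, with a median log2 ratio of -0.76 beside 0.20 for the same genes in all other barcodes. Their summed level did not have that sign, with 0.531% of UMIs over the graft and 0.5% in control in LG5 (ratio 1.06, 1.02 to 1.11), 0.0942% and 0.0983% for RC726 (ratio 0.959), and 0.232% and 0.202% in RC724 (ratio 1.15). The labels do not name the immunosuppressants. Glycolysis genes had 5 of 14 higher and 1 lower, with a median of 0.24, near the 0.22 of all genes.

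Migration and actin genes had 9 of 23 higher and 2 lower in LG5, and 8 and 7 on the TMM scale. Phagocytosis and Fc receptor genes had 1 of 15 higher and 4 lower, with a median of -0.07 beside 2.45 for the same genes in all other LG5 barcodes. Neither difference between barcode classes was tested as a list, and all other barcodes include the FBP1-positive ones.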
